A study of Mus musculus with 12 samples.

Results

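The vector by treatment interaction asked, gene by gene, whether the response of 2153L mammary tumors to a drug combination differed between tumors transduced with an empty vector (EV) and tumors transduced with p53ERTAM. For each gene the log2 response in EV tumors (combo minus vehicle) was subtracted from the log2 response in p53ERTAM tumors, so that a positive interaction means a response that was higher in p53ERTAM tumors. All 12 libraries entered, 3 in each of 4 groups. Of the 52636 genes in the count tables, 21896 were protein-coding in the GENCODE M21 annotation, and 13911 of these had enough counts to be tested, among 17970 genes tested in all.

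Every tumor came from 2153L, a GEM tumor labelled as triple-negative breast cancer (TNBC), and grew in the mammary fat pad of a female BALB/c host. The EV vehicle and p53ERTAM vehicle groups received vehicle. The EV combo and p53ERTAM combo groups received ORIN1001, an inhibitor of the IRE1α RNase, at 150 mg/kg daily together with docetaxel, a taxane that stabilises microtubules, at 20 mg/kg weekly, over 8 days. p53ERTAM is a p53 protein fused to a tamoxifen-responsive hormone-binding part of the estrogen receptor, so that tamoxifen switches it on. Which mice were given tamoxifen, whether those of the p53ERTAM vehicle group were, what drives the transgene and how tumors were assigned to hosts are not given in the labels. With 2 drugs always given together, the part of each in a response cannot be told apart. Bulk tumors were measured, so for every gene below a change in the number of cells of a type and a change in RNA per cell cannot be told apart.

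p53 is a transcription factor that, once active, induces genes of cell cycle arrest, DNA repair and cell death, such as Cdkn1a, Mdm2 and Ccng1. IRE1α is a sensor of misfolded protein in the endoplasmic reticulum (ER): its RNase splices the Xbp1 messenger into the form that encodes an active transcription factor for ER folding and secretion genes, and it also cleaves some other messengers (RIDD). Type I interferon signalling, which double-stranded RNA (dsRNA) in the cytosol can start through Ddx58 (RIG-I) and Ifih1 (MDA5), acts on promoters that hold interferon-stimulated response elements.

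Libraries held 13484873 to 24424964 counts. Protein-coding genes took 80.9 to 81.7% of the counts in the 3 EV combo libraries and 86.7 to 95.8% in the other 9, and 1 noncoding gene, Gm26917, took 10.7 to 11.1% in EV combo and 0.133 to 1.10% elsewhere. EV combo also stood apart in mitochondrial transcripts (0.703 to 0.957% of counts against 1.43 to 2.16%), in the noncoding RNA Xist (1.01 to 1.15% against 0.0776 to 0.487%) and in the share of coding counts from the fifth of genes with the longest span (33.4 to 34.02% against 28.7 to 32.7%). Among the other libraries p53ERTAM vehicle replicate 2 had the lowest coding share and the highest Gm26917 and Xist shares. The part of these library differences in the results, the EV only shapes among them, was not tested. Epithelial markers were high in every library, with Epcam at 473 to 1646 CPM (counts scaled to the size of each library). Of the receptors that define TNBC, Pgr stood at 0 to 1.41 CPM, Esr1 at 5.31 to 38.9 CPM and Erbb2 at 189 to 322 CPM, so that Erbb2 RNA was present throughout. Esr1 was higher in p53ERTAM than in EV tumors under vehicle (log2 difference 1.74, adjusted p = 0.00018) and its interaction was 0.11 ± 0.33 (SE; adjusted p = 0.81). Gene counts do not separate transgene from endogenous reads of Esr1 or Trp53.

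The interaction was called for 4836 of the 13911 protein-coding genes, 34.8%, at an adjusted p below 0.05 (edgeR's quasi-likelihood test, Benjamini-Hochberg over all genes tested). It was positive for 3207 genes (23.1%) and negative for 1629 (11.7%). The combo response itself was called in EV tumors for 1943 genes upward (14%) and 3505 downward (25.2%), and in p53ERTAM tumors for 571 upward (4.1%) and 310 downward (2.23%). The median interaction over all protein-coding genes tested was 0.23 on the log2 scale, from a median response of −0.13 in EV and 0.057 in p53ERTAM tumors. That offset depended on which genes set the library scale: with filter, library sizes and normalization taken from protein-coding genes alone, the median was 0.044, and 48.0% of the calls were positive in place of 66.3% (1962 genes positive, 14.1%, and 2124 negative, 15.2%). Against a tested fold of 1.5 instead of 0, 749 genes were positive and 634 negative (54.2% positive). Values below keep the whole-table scale, beside which the median of 0.23 stands. Counts of called genes in the lists below stand beside the 23.1% positive and 11.7% negative of all coding genes.

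The called genes were sorted by the shape of their 4 group means, a response counting as present when its fitted fold was at least 1.5. A response of that size in EV tumors alone was the most frequent shape, with 2264 genes (46.8% of the calls): 786 higher and 1478 lower in EV combo than in EV vehicle. A response in p53ERTAM tumors alone was seen for 515 genes (10.6%), 415 upward and 100 downward. Opposite responses were seen for 478 genes (9.88%), 223 with EV upward and 255 with EV downward, and both responses were themselves called for 50 and 42 of these. Only 9 genes responded in the same direction by different amounts, and 1570 (32.5%) differed between the vectors with neither response reaching 1.5-fold. The shapes were cut from the tested values, so these sizes are descriptions. Which direction of EV only was the larger depended on the library scale and on the fold. EV only held 1036 genes upward and 768 downward with the scale set on protein-coding genes alone, and 496 and 320 with a 2-fold response. As shares of all coding genes tested, EV only held 5.65% upward and 10.6% downward, p53ERTAM only 2.98% and 0.719%, opposite 1.6% (EV up) and 1.83% (EV down), the same direction 0.0503% upward and 0.0144% downward, and neither 11.3%. The smaller shapes moved with single p53ERTAM vehicle libraries: without replicate 2 the p53ERTAM only shapes held 271 genes upward and 66 downward and the opposite shapes 124 (EV up) and 147 (EV down), and without replicate 3 p53ERTAM only downward held 175 and opposite with EV up held 340. Without p53ERTAM combo replicate 1 or 3 the genes with neither response at 1.5-fold numbered 978 and 1001.

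**Figure D1:**
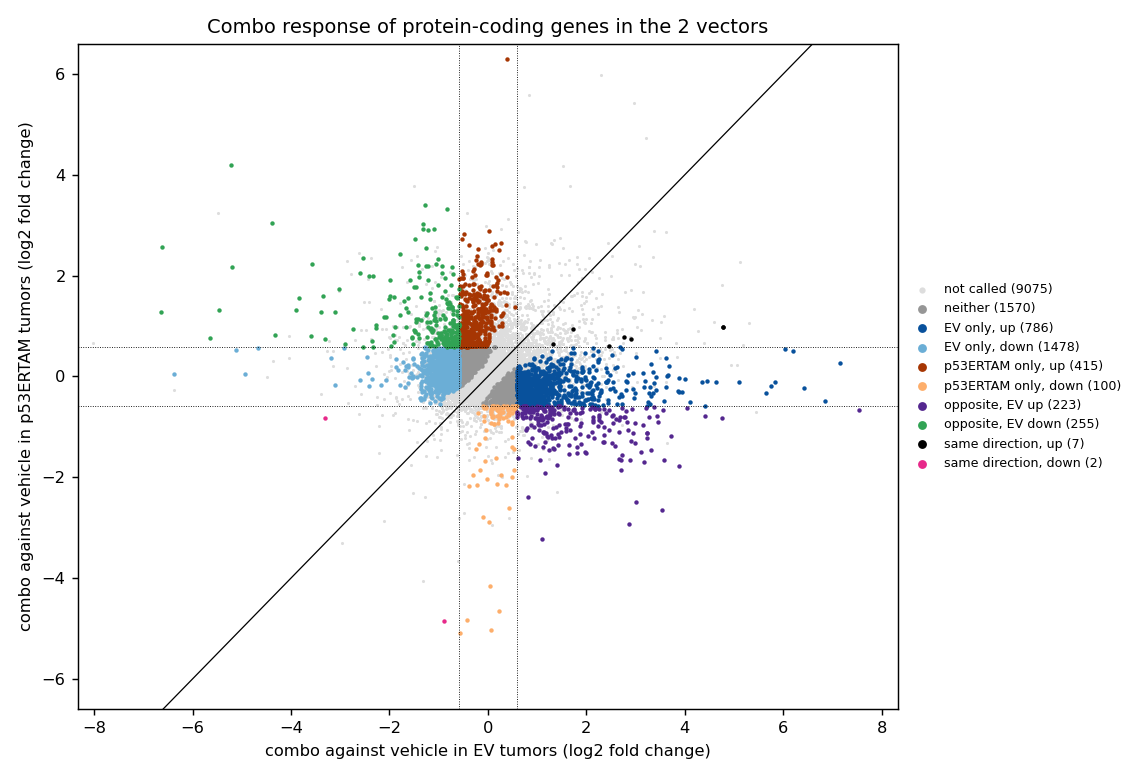
Each point is a protein-coding gene, with its combo response (log2 fold change, combo against vehicle) in EV tumors on the x axis and in p53ERTAM tumors on the y axis. Colors mark the shape of the 4836 called genes, light grey marks genes not called, dotted lines mark 1.5-fold, and the diagonal is an equal response in both vectors. The EV only shapes lie along the horizontal band, where EV responded and p53ERTAM did not reach 1.5-fold (1478 genes to the left, 786 to the right). The 1570 called genes with neither response at 1.5-fold lie within the dotted lines.

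For the EV only genes the place of the p53ERTAM tumors was read on a scale where 0 is the EV vehicle mean and 1 the EV combo mean. Of the 786 genes higher in EV combo, the p53ERTAM mean lay nearest EV vehicle (position below 1/3) for 369, nearest EV combo (above 2/3) for 241, and between for 176. Of the 1478 genes lower in EV combo these counts were 562, 516 and 400. The first position includes means past EV vehicle, away from EV combo (153 of 369 and 233 of 562 genes), and the second includes means past EV combo (137 of 241 and 242 of 516 genes). Among the p53ERTAM only genes the EV tumors lay nearest the p53ERTAM vehicle level, or past it, for 257 of 415 upward and 66 of 100 downward. Over all 4836 called genes, the group whose mean stood farthest from the other 3 was EV combo for 2080 (43.0%), EV vehicle for 1635 (33.8%), p53ERTAM combo for 697 (14.4%) and p53ERTAM vehicle for 424 (8.77%). Groups whose 3 libraries did not overlap the other 9 are mentioned for single genes below. Over all coding genes tested, the EV vehicle libraries lay above the others for 13.7% and below them for 5.29%, EV combo for 8.26% and 11.3%, p53ERTAM vehicle for 2.6% and 3.54%, and p53ERTAM combo for 8.51% and 4.27%.

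**Figure D2:**
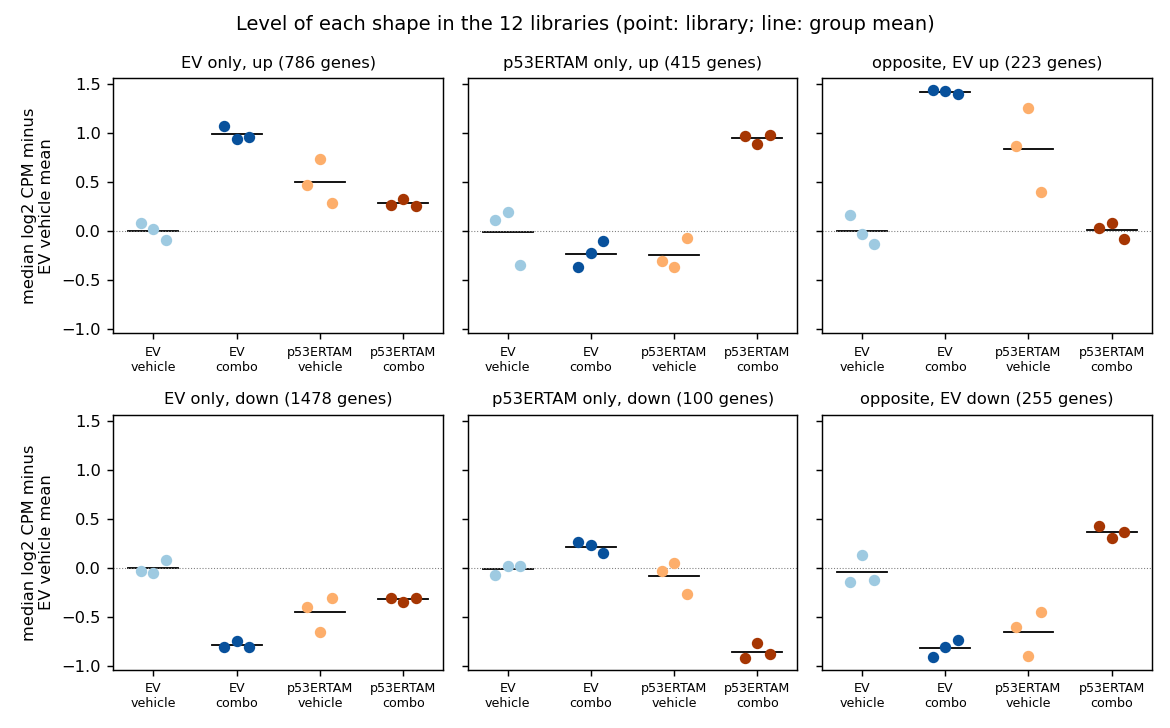
The y axis is the median over the genes of a shape of log2 CPM minus the gene's EV vehicle mean, and each point is 1 library of the group named on the x axis, with a line at the group mean. The 3 EV combo libraries of EV only, up lie at 0.94 to 1.08 and the p53ERTAM combo libraries at 0.26 to 0.33. The p53ERTAM vehicle libraries spread most in opposite, EV up, from 0.40 to 1.26.

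Within each shape, the 4 genes with the largest interactions among those with a mean of at least 5 CPM in their highest group are described; for p53ERTAM only, up they were Ifit3b, Iigp1, Pigr and Ccl5. Ifit3b, an interferon-induced gene of the IFIT family, stood at 3.35, 3.99 and 1.67 CPM in EV vehicle, 1.52, 2.17 and 2.73 in EV combo, 0.397, 1.76 and 1.17 in p53ERTAM vehicle and 8.94, 8.83 and 5.30 in p53ERTAM combo. All 3 p53ERTAM combo libraries lay above the other 9, and the interaction was 3.32 ± 0.67 (SE; adjusted p = 0.0026). Pigr, the receptor that carries polymeric immunoglobulin across epithelia, stood at 86.8, 69.0 and 107 CPM in EV vehicle, 63.1, 87.5 and 76.9 in EV combo, 13, 11 and 26.8 in p53ERTAM vehicle and 97.7, 104 and 93.2 in p53ERTAM combo. Here the p53ERTAM vehicle libraries were the low ones, below all others, and combo brought the gene back to the EV range (interaction 2.74 ± 0.38, adjusted p = 0.00057). The T cell attracting chemokine Ccl5 stood at 13.1, 12.4 and 14.3 CPM in p53ERTAM combo and at 2.22 to 6.67 CPM in the other 9 libraries (interaction 2.62 ± 0.45, adjusted p = 0.0011). Iigp1, an interferon-inducible GTPase, stood at 161, 211 and 168 CPM in p53ERTAM combo against 4.48 to 56.3 in the others. Its interaction of 2.86 ± 0.99 (adjusted p = 0.043) was not called when any 1 of 9 libraries was left out or without the filter on low counts (adjusted p = 0.136), and was 1.46 (adjusted p = 0.12) without EV vehicle replicate 2, the library with 56.3 CPM.

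For p53ERTAM only, down the same rule gave Alas2, Col17a1, Fgfr2 and Ltb4r2, with interactions of −4.41 to −2.69. Fgfr2, a receptor tyrosine kinase for fibroblast growth factors (chr7:130162451-133123350), stood at 42.8, 58.5 and 59.2 CPM in EV vehicle and 61.5, 52.6 and 48.1 in EV combo, and at 11.1, 8.22 and 11.7 in p53ERTAM vehicle and 1.29, 1.69 and 1.22 in p53ERTAM combo. No group overlapped another across the vectors: p53ERTAM tumors were lower already under vehicle (log2 −2.37, adjusted p = 7.5e-06) and fell by a further 2.89 on the log2 scale with combo (adjusted p = 4.5e-05), while the EV response was 0.02. Col17a1, a hemidesmosome collagen of basal epithelial cells, followed the same order, with 78.6, 147 and 175 CPM in EV vehicle, 230, 189 and 119 in EV combo, 21.4, 13.4 and 24.8 in p53ERTAM vehicle and 2.01, 4.37 and 3.37 in p53ERTAM combo (interaction −3.04 ± 0.51, adjusted p = 0.0013). Ltb4r2, a leukotriene B4 receptor, stood at 0.0866 to 0.403 CPM in p53ERTAM combo, below all other libraries (interaction −2.69, adjusted p = 0.018). Alas2, the enzyme that starts heme synthesis in red cell precursors, was at 14 counts over the 3 p53ERTAM combo libraries and at 66 to 270 in the other groups (interaction −4.41, adjusted p = 0.012).

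**Figure D3:**
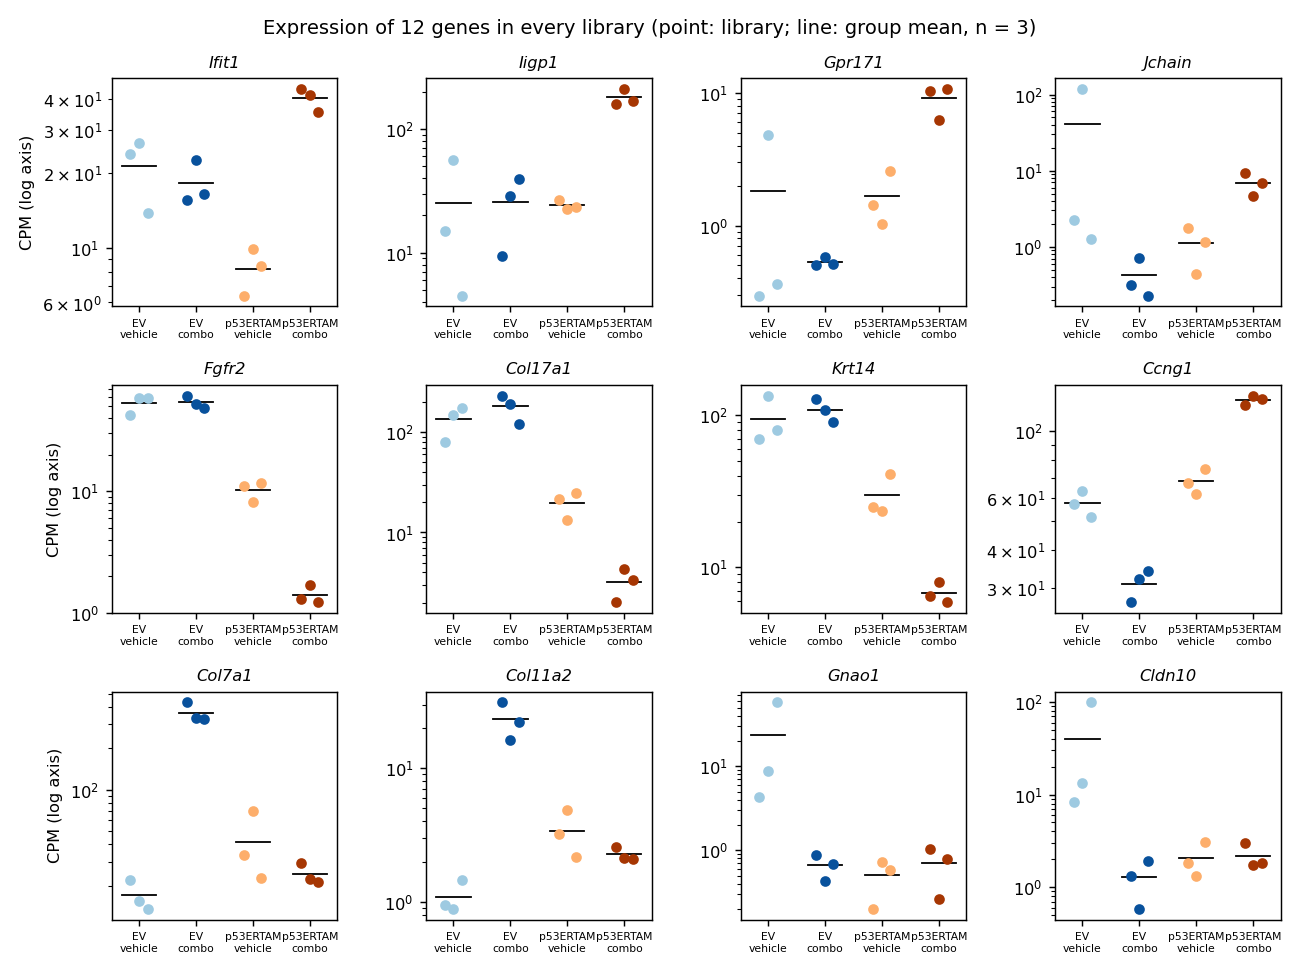
Each panel is a gene, the y axis is CPM on a log axis, points are the 3 libraries of each group on the x axis and lines are group means. Ifit1, Iigp1 and Ccng1 were highest in p53ERTAM combo, Fgfr2, Col17a1 and Krt14 were lowest there, Col7a1 and Col11a2 were highest in EV combo, and in Jchain, Gpr171, Gnao1 and Cldn10 a single EV vehicle library stands far above the other 2.

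For EV only, up the rule gave Col25a1, Srcin1, Col11a2 and Clic6. Col11a2, a fibril-forming collagen of cartilage (chr17:34039437-34066685), stood at 0.937, 0.877 and 1.46 CPM in EV vehicle and 31.2, 16.2 and 22.4 in EV combo, and at 2.08 to 4.84 CPM in the 6 p53ERTAM libraries. It rose by 4.41 ± 0.36 on the log2 scale in EV tumors (adjusted p = 2.0e-05) with a p53ERTAM response of −0.58 (adjusted p = 0.30), giving an interaction of −4.99 ± 0.48 (adjusted p = 0.00016). Clic6, a chloride channel family member, stood at 8.57, 1.30 and 13.8 CPM in EV combo and 0.0987 to 0.881 elsewhere (interaction −4.75 ± 1.31, adjusted p = 0.014), and was not called without p53ERTAM vehicle replicate 2 (−4.16, adjusted p = 0.058). Col25a1, a membrane collagen, stood at 13.3, 2.38 and 0.912 CPM in EV combo, 0, 0.0877 and 0.197 in EV vehicle and 1.57 to 3.89 in p53ERTAM tumors, so that its p53ERTAM libraries lay within the range of EV combo (interaction −5.95 ± 1.32, adjusted p = 0.0048). Srcin1, an inhibitor of the kinase Src, stood at 6.73, 1.01 and 20.0 CPM in EV combo and 0 to 0.729 in EV vehicle (interaction −5.21 ± 1.55, adjusted p = 0.021). Its call was lost without p53ERTAM combo replicate 3 (−5.08), without p53ERTAM vehicle replicate 1 (−4.11) and without EV combo replicate 3 (−3.94). With voom quality weights Clic6 (adjusted p = 0.276), Col25a1 (0.0812) and Srcin1 (0.113) were not called, and without the filter neither were Clic6 (0.0566) and Srcin1 (0.0941).

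The 4 genes for EV only, down were by far the highest in EV vehicle replicate 3. Gnao1, a G protein subunit of nerve and endocrine cells, stood at 4.34, 8.73 and 57.8 CPM in EV vehicle, at 0.433 to 0.888 in EV combo and at 0.198 to 1.05 in p53ERTAM tumors (interaction 5.64 ± 1.39, adjusted p = 0.0091). Its 3 EV vehicle libraries all lay above the other 9, and p53ERTAM tumors stood at the EV combo level under both treatments. The tight junction protein Cldn10 stood at 8.34, 13.3 and 99.2 CPM in EV vehicle and 0.578 to 3.09 elsewhere, the RNA-binding protein Khdrbs3 at 2.17, 2.11 and 28.5 against 0 to 1.21, and the circadian transcription factor Dbp at 5.77, 10.7 and 57.0 against 1.30 to 12.8. Their interactions of 4.99, 5.24 and 3.49 were 3.08, 2.87 and 1.90 without EV vehicle replicate 3. All 3 were still called then, while Khdrbs3 was not called without p53ERTAM vehicle replicate 2 (5.06, adjusted p = 0.052). With voom quality weights Gnao1 (adjusted p = 0.0639) and Cldn10 (0.0629) were not called, and without the filter neither were Khdrbs3 (0.0859) and Dbp (0.0848).

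For opposite responses with EV upward the rule gave Gjc3, Pcdhgc4, Col7a1 and Nlrp9b. Col7a1, which encodes the anchoring fibril collagen of epithelial basement membranes (chr9:108953586-108984875), stood at 22.2, 15.5 and 13.5 CPM in EV vehicle and 432, 333 and 326 in EV combo, and at 33.3, 69.8 and 22.8 in p53ERTAM vehicle and 29.0, 22.4 and 21.3 in p53ERTAM combo. The EV combo libraries lay above all others, and the interaction was −5.20 ± 0.49 (adjusted p = 0.00016). The p53ERTAM response of −0.79 was not itself called (adjusted p = 0.17), so the opposite sign rests on the fold alone. Pcdhgc4, a clustered protocadherin, rose in EV tumors (log2 3.58, adjusted p = 0.0004) and had a p53ERTAM response of −1.66 (adjusted p = 0.0675). Nlrp9b, an inflammasome sensor, stood at 4.63, 8.60 and 2.79 CPM in EV combo and 0.0785 to 0.937 in the other 9 libraries (interaction −4.61 ± 1.02, adjusted p = 0.0042). Gjc3, a connexin, had no count in the 3 EV vehicle libraries and stood at 2.92, 0.433 and 0.228 CPM in EV combo, below the 3.96 to 6.99 CPM of p53ERTAM vehicle and, apart from its highest library, the 2.18 to 3.65 CPM of p53ERTAM combo. Against a floor of 3 counts over the group (0.0482 CPM, counting error only) the EV combo mean was at least 24.8-fold higher, a bound that would be lower if a read pair gave 2 counts.

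For opposite responses with EV downward the rule gave Jchain, Cd22, Gpr171 and Tgtp1, each far higher in EV vehicle replicate 2 than in the other EV vehicle libraries. Jchain, the joining chain of secreted antibodies, stood at 2.27, 119 and 1.25 CPM in EV vehicle and at 4.63 to 9.35 in p53ERTAM combo, against 0.228 to 0.722 (EV combo) and 0.440 to 1.78 (p53ERTAM vehicle). Its interaction was 9.19 ± 2.22 (adjusted p = 0.0093) with all libraries and 4.64 without EV vehicle replicate 2. With voom quality weights it was not called (adjusted p = 0.193). The B cell receptor regulator Cd22 stood at 1.28, 18.7 and 0.313 CPM in EV vehicle, the lymphocyte receptor Gpr171 at 0.296, 4.83 and 0.365, and the interferon-inducible GTPase Tgtp1 at 0.740, 6.71 and 0.417. Their interactions of 4.66, 4.23 and 4.16 were 1.55, 1.73 and 1.96 without that library, and none was called then (adjusted p 0.12, 0.066 and 0.063) or without the filter (0.115, 0.0736 and 0.0776). The 3 p53ERTAM combo libraries of Gpr171 (10.4, 6.28 and 10.7 CPM) lay above the other 9.

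Same-direction responses of unequal size were few, with 7 genes upward and 2 downward. Zfhx4, Adamts3, Mmp2 and Fbn1 were higher under combo in EV tumors by 2.90, 2.46, 1.74 and 1.33 on the log2 scale and in p53ERTAM tumors by 0.74, 0.60, 0.94 and 0.64, where the responses of Mmp2 and Fbn1 alone were called (adjusted p = 0.019 and 0.032). Mmp2 is a matrix metalloproteinase and Fbn1 the microfibril protein fibrillin. None of the 7 upward genes kept its call in every refit, and the interactions of Zfhx4, Mmp2 and Fbn1 were not called with voom quality weights (adjusted p = 0.141, 0.121 and 0.0856). The calls of the 2 downward genes held in all 21 settings other than the test against a fold of 1.5. The upward shape held 21 genes without EV vehicle replicate 2 and 15 without EV combo replicate 2. It held 1 without p53ERTAM vehicle replicate 1 or p53ERTAM combo replicate 1, 2 without EV combo replicate 3 and 3 without replicate 3 of either p53ERTAM group. The tight junction gene Cldn2 stood at 56.1, 73.5 and 129 CPM in EV vehicle and 5.08, 15.2 and 5.98 in EV combo, against 31.6, 18.9 and 38.2 in p53ERTAM vehicle and 15.8, 19.5 and 14.9 in p53ERTAM combo (interaction 2.49 ± 0.58, adjusted p = 0.0068). The other downward gene was Hbb-bs, a beta globin.

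Interferon-stimulated genes were mostly of the p53ERTAM only, up shape. Of 39 tested members of the list, 32 had a positive interaction and 0 a negative one, with a list median of 1.56 beside 0.23 over all protein-coding genes, and 29 of the 32 had the p53ERTAM only, up shape. With the scale set on protein-coding genes alone, 25 were positive and 0 negative. All 39 were called upward in the p53ERTAM response, while in EV tumors 1 rose and 2 fell. Under vehicle 11 of the 39 were lower in p53ERTAM than in EV tumors, a share near the 24.5% of all coding genes, and 0 were higher (15.7% of all coding genes). Under combo 26 were higher and 0 lower (26.6% and 19.5%). The summed level of the list spanned 2038 to 2372 CPM in p53ERTAM combo, against 663 to 814 (p53ERTAM vehicle), 1038 to 1291 (EV combo) and 650 to 1577 (EV vehicle), so the first group did not overlap the others and EV vehicle spread most.

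Ifit1, a sensor of foreign RNA caps (chr19:34640871-34650009), stood at 24.1, 26.5 and 13.9 CPM in EV vehicle, 15.6, 22.6 and 16.6 in EV combo, 6.39, 9.84 and 8.39 in p53ERTAM vehicle and 44.0, 41.5 and 35.6 in p53ERTAM combo. The p53ERTAM vehicle libraries were below and the p53ERTAM combo libraries above all 9 others, with an interaction of 2.54 ± 0.34 (adjusted p = 0.00041). Bst2 (tetherin), which holds budding virus at the cell surface (chr8:71534255-71537456), stood at 30.3, 45.8 and 27.3 CPM in EV vehicle, 17.6, 17 and 21.6 in EV combo, 17.2, 23.3 and 25.7 in p53ERTAM vehicle and 44.5, 42.0 and 44.6 in p53ERTAM combo. It fell in EV tumors (log2 −0.88, adjusted p = 0.0039) and rose in p53ERTAM tumors (0.99, adjusted p = 0.017), with an interaction of 1.87 ± 0.28 (adjusted p = 0.00064). The transcription factor Stat2 had an interaction of 0.95 ± 0.20 (adjusted p = 0.003) and Isg15, a ubiquitin-like modifier, one of 1.80 ± 0.48 (adjusted p = 0.012); both were chosen after their values were seen.

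Promoters were searched in every shape and list for motifs set in the plan, which paired the interferon-stimulated genes with their response element. A match to the interferon-stimulated response element (GAAA, any 2 bases, GAAA) on either strand lay in the RefSeq promoter window (300 bases: 250 before to 50 after the start; GRCm38.p6) of 15 of the 30 list members that matched the table, against 3.44% of all 32851 promoters and 3.83% of the 10822 matched coding genes tested. Among shapes the share was 15% for p53ERTAM only, up (321 matched) and 9.79% for opposite, EV down (194 matched), and 2.30 and 3.37% for EV only, up and down. Motif matches are descriptions of letters in a window. Stretches around the matches of Ifit1 (chr19:34640740-34640839, plus strand), Ifit3b (chr19:34607724-34607823, plus strand) and Bst2 (chr8:71537548-71537647, minus strand) are shown with matches in capitals because these genes' values are given above; the first match starts 104, 188 and 130 bases before the start site.
Ifit1: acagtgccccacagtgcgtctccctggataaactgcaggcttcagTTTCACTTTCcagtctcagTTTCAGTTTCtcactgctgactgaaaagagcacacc
Ifit3b: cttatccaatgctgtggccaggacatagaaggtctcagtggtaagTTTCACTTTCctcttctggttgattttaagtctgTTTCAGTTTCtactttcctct
Bst2: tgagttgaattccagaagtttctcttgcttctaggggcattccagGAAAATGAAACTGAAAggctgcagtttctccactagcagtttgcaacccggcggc
In Ifit1 and Ifit3b the motif is read on the opposite strand, as TTTC, any 2 bases, TTTC, and occurs at 2 places; in Bst2 it is on the gene's strand and its 2 matches overlap.

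Sensors and adaptors of dsRNA moved less uniformly. Of 23 tested members, 9 were positive and 2 negative, against 23.1% and 11.7% of all coding genes, with a median of 0.39. Ddx58 (RIG-I) stood at 51.2, 55.7 and 60.0 CPM in p53ERTAM vehicle and 111, 108 and 92.9 in p53ERTAM combo, and at 68.2 to 89.7 in the 6 EV libraries (interaction 0.96 ± 0.18, adjusted p = 0.0019). Both p53ERTAM groups stood apart from EV, on opposite sides. Tlr3, the endosomal dsRNA receptor, fell in EV tumors (log2 −0.60, adjusted p = 0.035) and rose in p53ERTAM tumors (1.02, adjusted p = 0.019), with an interaction of 1.62 ± 0.30 (adjusted p = 0.0017). The negative members were Ikbke (−0.88), a kinase that activates interferon transcription factors, and Adarb1 (−0.54), an RNA-editing deaminase, named after their values were seen. The counts were 13 positive and 0 negative with the gene length correction fitted on protein-coding genes, described below. Without p53ERTAM vehicle replicate 1 the positive count was 5, and with p53ERTAM vehicle replicate 2 or replicate 1 of either combo group left out the negative count was 1.

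Antigen presentation genes followed the interferon-stimulated genes. Of 20 MHC class I presentation genes 17 were positive and 0 negative (median 1.34; 15 and 0 with the coding-only scale), 12 of the p53ERTAM only, up shape and 5 of opposite, EV down. Psmb10, a subunit of the immunoproteasome, stood at 19.1, 19.7 and 16.1 CPM in EV vehicle, 9.14, 10.8 and 12.1 in EV combo, 14.3, 12.2 and 15.2 in p53ERTAM vehicle and 21.9, 29.1 and 27.2 in p53ERTAM combo. Its EV combo libraries were below and its p53ERTAM combo libraries above all others (interaction 1.68 ± 0.24, adjusted p = 0.00049). Erap1, which trims peptides for class I, had an interaction of 1.5 ± 0.25 (adjusted p = 0.00096), the light chain B2m one of 2.13 ± 0.48 (adjusted p = 0.0056) and Tapbp, a loading chaperone, one of 1.22 ± 0.24 (adjusted p = 0.0024). B2m was not picked by the rule for naming genes. Of 11 MHC class II presentation genes 10 were positive (median 2.52; 1.37 without EV vehicle replicate 2), although the p53ERTAM response was called for 3. The lysosomal protease Ctss, which processes the class II invariant chain, stood at 276, 254 and 310 CPM in p53ERTAM combo and 53.7 to 117 CPM in the other 9 libraries (interaction 2.13 ± 0.37, adjusted p = 0.0014). H2-DMb1, a peptide editor, stood at 12.8, 18.2 and 18.8 CPM in p53ERTAM combo and 1.46 to 11 elsewhere (interaction 3.36 ± 0.68, adjusted p = 0.0029). The class II count was sensitive to single libraries. It was 3 without p53ERTAM vehicle replicate 2 or EV combo replicate 1, 4 when replicate 2 of either combo group was left out, 5 without p53ERTAM combo replicate 3 and 6 without p53ERTAM combo replicate 1 or EV vehicle replicate 2. It was 4 or 5 with the gene length corrections described below.

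Markers of immune cells were counted beside these groups. Of 16 macrophage markers 11 were positive and 0 negative (median 1.43; 9 with the coding-only scale, 7 or 9 with the length corrections), and their summed level spanned 2110 to 3013 CPM in p53ERTAM combo, against 1027 to 1178 (p53ERTAM vehicle), 660 to 925 (EV combo) and 763 to 1153 (EV vehicle). Tyrobp, a signalling adaptor of myeloid cells, stood at 42.8, 36.5 and 56.7 CPM in p53ERTAM combo and 11.7 to 23 elsewhere (interaction 2.0 ± 0.29, adjusted p = 0.00057), and the complement gene C1qa at 279, 249 and 321 against 50.6 to 119 (1.95 ± 0.34, adjusted p = 0.0014). Of 14 T cell markers 6 were positive (median 2.58), all 6 with the opposite, EV down shape, but the summed T cell level overlapped between groups at 89.9 to 108 CPM in p53ERTAM combo, 63.9 to 81.3 (p53ERTAM vehicle), 30.1 to 45.7 (EV combo) and 23.9 to 99.5 (EV vehicle). Icos, a T cell costimulator, had an interaction of 4.34 ± 0.92 (adjusted p = 0.0036) and Cd8b1, a coreceptor chain of cytotoxic T cells, one of 4.65 ± 1.22 (adjusted p = 0.011), on levels of at most 3.29 CPM. The T cell count was 4 (median 1.29) without EV vehicle replicate 2 and 11 without EV vehicle replicate 3. Thy1, which is also on the fibroblast list, held the most counts of any T cell marker in each group (1058, 1106, 2325 and 4047 over the 3 libraries of EV vehicle, EV combo, p53ERTAM vehicle and p53ERTAM combo), and its interaction of −0.24 was not called (adjusted p = 0.61). Of 9 markers each, NK and cytotoxic cells had 1 positive, neutrophils 1 and dendritic cells 2, at or below the 23.1% of all coding genes. B and plasma cell markers were called for 2 of 5 tested, Jchain and Cd22, described above, and their summed level reached 213 CPM in 1 EV vehicle library against 6.83 to 20.4 CPM in the 9 libraries of the other groups. That count was 1 with replicate 1 or 2 of p53ERTAM vehicle left out, replicate 1 or 3 of either combo group, or replicate 2 of EV vehicle. No macrophage or T cell marker of the lists that matched an identifier was at 0 in a whole group. The part of immune cell numbers in the interferon and antigen presentation results was not tested.

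Lysosomal and chemokine genes were also mostly positive where called. Of 36 lysosome genes 24 were positive and 1 negative (median 0.98, and 18 and 1 with the coding-only scale), 11 of them of the p53ERTAM only, up shape. Under combo 31 of the 36 were called higher with p53ERTAM than with EV, against 26.6% of all coding genes. Of 24 chemokine ligands 8 were positive and 1, Ccl25 (−0.93), negative (median 1.32), against 23.1% and 11.7% of all coding genes. Ccl5, described above, was among the positive ones. The positive chemokine count was 13 without EV vehicle replicate 3.

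The interaction of p53 and its targets was mixed. Trp53 itself stood at 41.9, 55.0 and 40.2 CPM in EV vehicle, 48.2, 51.4 and 39.8 in EV combo, 48.4, 49.3 and 56.7 in p53ERTAM vehicle and 57.6, 60.6 and 65.0 in p53ERTAM combo. Its interaction was 0.22 ± 0.20 (adjusted p = 0.39), close to the coding median, and the files do not separate transgene from endogenous reads. Cdkn1a, which encodes the cell cycle inhibitor p21, stood at 26.2, 45.2 and 26.8 CPM in EV vehicle, 53.9, 22.3 and 25.2 in EV combo, 92.2, 158 and 117 in p53ERTAM vehicle and 175, 200 and 167 in p53ERTAM combo. It was higher with p53ERTAM under both treatments (log2 1.90 and 2.42, adjusted p = 0.0011 and 0.00017), while its interaction of 0.52 ± 0.45 was not called (adjusted p = 0.39). Without EV combo replicate 1, the library at 53.9 CPM, the interaction was 1.03 and was called (adjusted p = 0.0398). Mdm2, the ubiquitin ligase that limits p53, was likewise higher with p53ERTAM (0.46 under vehicle and 0.48 under combo, adjusted p = 0.016 and 0.0099) with an interaction of 0.03 ± 0.19.

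Of 37 p53 targets tested, 11 were positive and 3 negative, near the 23.1% and 11.7% of all coding genes, with a median of 0.52 (0.35 without EV vehicle replicate 2). Between the vectors, 10 of the 37 were higher and 4 lower with p53ERTAM under vehicle (15.7% and 24.5% of all coding genes). Under combo 23 were higher and 5 lower (26.6% and 19.5%). Ccng1, a cyclin G that acts in p53 feedback (chr11:40748552-40755311), stood at 57.4, 63.2 and 51.9 CPM in EV vehicle, 26.8, 32.0 and 34.1 in EV combo, 67.0, 62.0 and 75 in p53ERTAM vehicle and 122, 132 and 128 in p53ERTAM combo. Its 4 groups separated at both ends: EV combo was below and p53ERTAM combo above every other library. It fell in EV tumors (log2 −0.89, adjusted p = 0.00024) and rose in p53ERTAM tumors (0.90, adjusted p = 0.0036), with an interaction of 1.80 ± 0.17 (adjusted p = 0.00015). Ephx1, an epoxide hydrolase, stood at 53.6, 52.9 and 60.3 CPM in p53ERTAM combo and 15.7 to 30.8 elsewhere (interaction 1.54 ± 0.26, adjusted p = 0.0011). The negative members, named after their values were seen, were the DNA damage binding gene Ddb2 (−1.41), the death domain adaptor Pidd1 (−1.11) and the translesion polymerase Polk (−0.78). The positive count was 6 with the coding-only scale and 5 without p53ERTAM combo replicate 3. It was 6 when replicate 2 of either EV group or p53ERTAM vehicle replicate 1 was left out and 7 without p53ERTAM combo replicate 2.

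**Figure D4:**
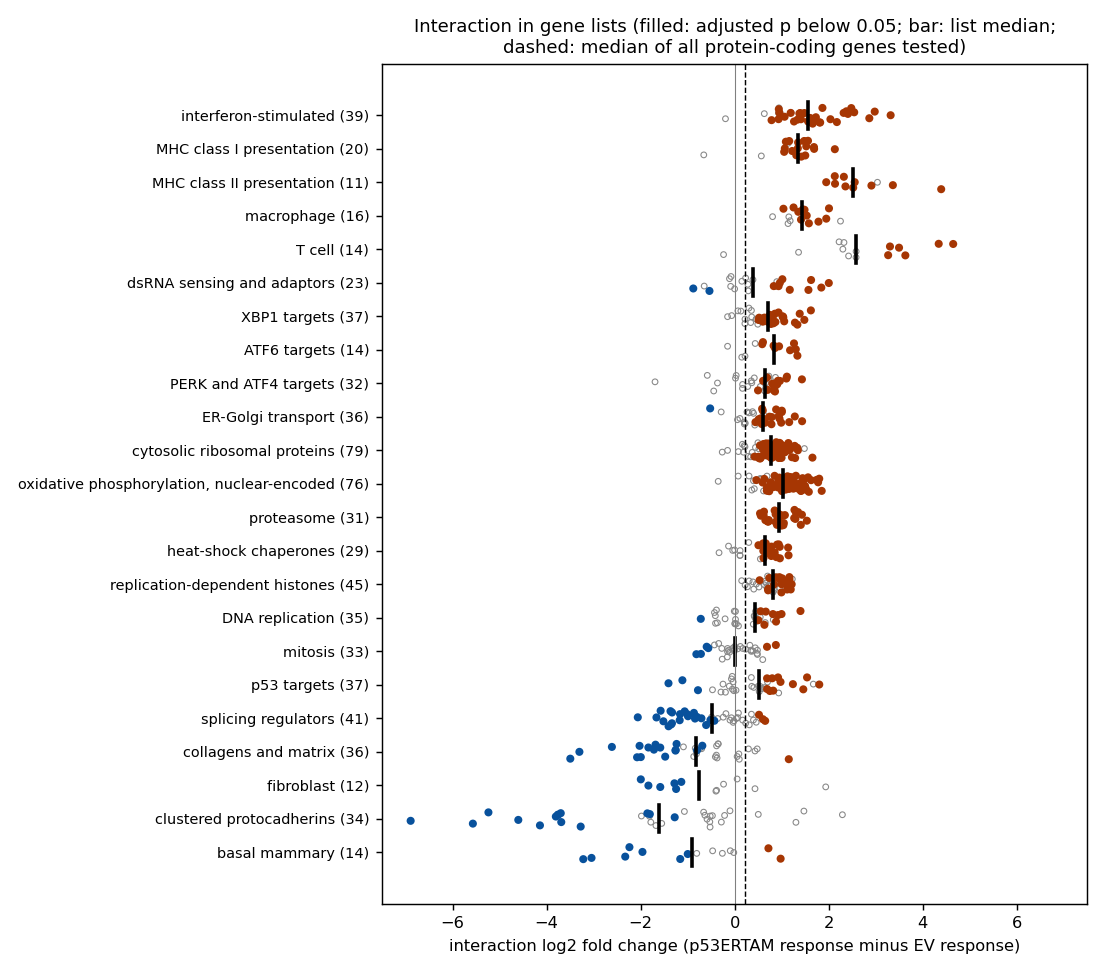
Rows are gene lists with the number of members tested, and the x axis is the interaction on the log2 scale. Each point is a gene, filled where called, black bars are list medians and the dashed line is the median of 0.23 over protein-coding genes. Interferon, MHC, proteasome and respiratory chain genes lie almost wholly to the right, and splicing, collagen and protocadherin genes lie mostly to the left.

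Genes of the unfolded protein response, the pathway that IRE1α serves, moved mainly in EV tumors. Ern1, which encodes IRE1α, stood at 60.5 to 79.2 CPM over all 12 libraries and its interaction was 0.03 ± 0.14 (adjusted p = 0.88). Total Xbp1 stood at 122, 166 and 273 CPM in EV vehicle, 85.7, 99.7 and 76.8 in EV combo, 94.3, 104 and 128 in p53ERTAM vehicle and 130, 134 and 133 in p53ERTAM combo. EV vehicle lay above EV combo without overlap, and the interaction was 1.38 ± 0.32 (adjusted p = 0.0061). Gene counts do not tell spliced from unspliced Xbp1. Of 37 XBP1 targets 22 were positive and 0 negative (median 0.71; 20 with the coding-only scale), 15 of them with the EV only, down shape: in EV tumors 30 of the 37 fell with combo and in p53ERTAM tumors 0 were called. Serp1, which stabilises proteins at the ER translocon, stood at 415, 386 and 616 CPM in EV vehicle, 182, 185 and 197 in EV combo and 246 to 399 in p53ERTAM tumors, EV combo lying below all other libraries (interaction 1.62 ± 0.24, adjusted p = 0.00058). Dnajb11, a cochaperone of the ER, had an interaction of 1.02 ± 0.18 (adjusted p = 0.0013).

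Of 14 ATF6 targets 10 were positive and 0 negative (median 0.84). Calr, the calcium-binding chaperone calreticulin, stood at 668, 747 and 731 CPM in EV vehicle, 484, 493 and 473 in EV combo, 536, 487 and 653 in p53ERTAM vehicle and 747, 709 and 724 in p53ERTAM combo (interaction 0.94 ± 0.15, adjusted p = 0.0009). It fell in EV tumors (log2 −0.56, adjusted p = 0.0016), where EV combo reached the lower end of the p53ERTAM vehicle range. Selenos, part of the machinery that removes misfolded ER proteins, fell in EV tumors from 34.7, 31.1 and 46.0 to 20.4, 19.1 and 18.4 CPM, below all p53ERTAM libraries (interaction 1.30 ± 0.23, adjusted p = 0.0012). The chaperones Dnajc3 and Canx had interactions of 0.83 ± 0.16 and 0.86 ± 0.17 (adjusted p = 0.002 and 0.0023); they were chosen for their promoters. An ER stress response element (CCAAT, any 9 bases, CCACG) on either strand lay in the promoter window of 7 of 12 matched ATF6 targets, against 0.119% of all promoters. The plan paired this element and the motif TGACGTGG with both XBP1 and ATF6 targets. In XBP1 targets the element lay in 3 of 30 matched. TGACGTGG lay in 1 of 30 XBP1 and 0 of 12 ATF6 targets, against 0.676% of all promoters. Stretches of 3 of the 7 ATF6 targets with the element are shown with the match in capitals (Calr, chr8:84847030-84847138, minus strand; Canx, chr11:50325755-50325863, minus strand; Dnajc3, chr14:118937782-118937890, plus strand).
Calr: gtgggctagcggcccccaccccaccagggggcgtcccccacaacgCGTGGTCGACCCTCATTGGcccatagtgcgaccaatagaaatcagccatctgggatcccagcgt
Canx: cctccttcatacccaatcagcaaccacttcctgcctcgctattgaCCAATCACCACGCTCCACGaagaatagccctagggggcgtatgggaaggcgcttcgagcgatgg
Dnajc3: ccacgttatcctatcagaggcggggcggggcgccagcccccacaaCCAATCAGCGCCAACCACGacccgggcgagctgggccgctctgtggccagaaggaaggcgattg

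Targets of PERK and ATF4, the amino acid and stress response arm, were positive for 14 of 32 and negative for 0 (median 0.65). Psat1, an enzyme of serine synthesis, stood at 255, 266 and 311 CPM in EV vehicle, 116, 133 and 118 in EV combo and 64.5 to 114 in p53ERTAM tumors, so that p53ERTAM tumors stood below the EV combo level under both treatments (interaction 1.43 ± 0.22, adjusted p = 0.00079). Nars, the asparaginyl-tRNA synthetase, had an interaction of 0.70 ± 0.12 (adjusted p = 0.0012). The ATF4 motif TGATGNAA on either strand lay in the promoter window of 11 of 27 matched members, against 3.97% of all promoters. Of 36 ER to Golgi transport genes 22 were positive and 1, the Golgi matrix gene Golga2 (−0.52), negative (median 0.59). Arf1, a GTPase of vesicle coats, stood at 249, 269 and 269 CPM in EV vehicle, 163, 160 and 149 in EV combo and 178 to 253 in p53ERTAM tumors (interaction 1.0 ± 0.14, adjusted p = 0.00054), and the SNARE protein Gosr2 at 147, 139 and 137, then 90.4, 102 and 95, then 132 to 175 CPM (0.79 ± 0.13, adjusted p = 0.0009). Of 12 known RIDD substrates 5 were positive and 2 negative (median 0.68), against 23.1% and 11.7% of all coding genes. Erp44, an ER redox chaperone, was among the positive ones (0.96 ± 0.19, adjusted p = 0.0023) and Col6a1 and Pdgfrb were the negative ones (−1.24 and −1.14).

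Genes of several housekeeping machineries were positive where called, and of the 1478 EV only, down genes 55 were ribosomal, 41 respiratory, 7 proteasomal and 13 heat-shock chaperone genes. Of 79 cytosolic ribosomal protein genes 60 were positive and 0 negative (median 0.77). Rps16 stood at 239, 256 and 300 CPM in EV vehicle, 126, 113 and 101 in EV combo and 153 to 210 in p53ERTAM tumors, with no overlap of either EV group with the rest (interaction 1.28 ± 0.19, adjusted p = 0.00069). Rplp1 stood at 717, 664 and 708, 301, 365 and 302, and 575 to 690 CPM in the same order (0.95 ± 0.14, adjusted p = 0.00067). Of 76 nuclear genes of oxidative phosphorylation 63 were positive and 0 negative (median 1.04). Under vehicle 63 of these 76 were already lower in p53ERTAM than in EV tumors, against 27 of 79 ribosomal genes and 24.5% of all coding genes. Ndufb9, of respiratory complex I, stood at 84.3, 79.8 and 88.5 CPM in EV vehicle, 46.8, 47.8 and 49.8 in EV combo, 55.4, 44.3 and 55.5 in p53ERTAM vehicle and 71.3, 68.2 and 62.3 in p53ERTAM combo (interaction 1.18 ± 0.15, adjusted p = 0.00038). Uqcrq, of complex III, had an interaction of 1.38 ± 0.19 (adjusted p = 0.00048).

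All 31 proteasome genes were positive (median 0.93, and 26 positive with the coding-only scale), 17 of them with neither response at 1.5-fold. Under vehicle 30 of the 31 were lower in p53ERTAM than in EV tumors, against 24.5% of all coding genes. Psmd8, of the regulatory lid, stood at 93.2, 75.2 and 87.5 CPM in EV vehicle, 47.9, 46.9 and 48.9 in EV combo, 42.8, 36.8 and 55.9 in p53ERTAM vehicle and 75.3, 64.0 and 81.3 in p53ERTAM combo (interaction 1.53 ± 0.21, adjusted p = 0.00045). It was high in EV vehicle and p53ERTAM combo and low in the other 2 groups. Psmb3, of the catalytic core, had an interaction of 1.04 ± 0.17 (adjusted p = 0.00082). Of 29 heat-shock chaperone genes 19 were positive and 0 negative (median 0.64), among them the HSP90 activator Ahsa1 (0.96 ± 0.16, adjusted p = 0.0011) and the HSP70 partner Dnaja2 (1.14 ± 0.18, adjusted p = 0.00079). Of 13 tubulin genes 3 were positive, Tubb5 (0.55), Tubg1 (0.66) and Tuba4a (0.78), as large a share as the 23.1% of all coding genes. With the coding-only scale 0 were called. The tubulin count was 0 when replicate 1 of either combo group, p53ERTAM combo replicate 3 or EV vehicle replicate 2 was left out and 5 without p53ERTAM vehicle replicate 3. It was 1 with replicate 2 of p53ERTAM vehicle, replicate 2 or 3 of EV combo or replicate 3 of EV vehicle left out.

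Interactions varied with gene length, which was low for the ribosomal and respiratory genes. In 5 equal bins by summed exon length, with medians of 1.68 to 9.61 kb, the median interaction went from 0.68 through 0.43, 0.20 and 0.076 to −0.15. The EV response varied more than the p53ERTAM response, with bin medians from −0.46 to 0.14, while the p53ERTAM response went from 0.18 to −0.029. By genomic span the interaction went from 0.53 to −0.026. When each library's smooth trend over both lengths, fitted on protein-coding genes, was removed, the bin medians lay at 0.20 to 0.25. Of the coding genes 2987 were then positive (21.5%) and 1260 negative (9.06%), 3344 of the 4836 calls being shared in the same direction. With this correction the ribosomal count was 29 of 79 (median 0.45), the oxidative phosphorylation count 40 of 76 (0.63) and the proteasome count 23 of 31 (0.71), whereas 30 interferon-stimulated, 24 XBP1 target and 10 ATF6 target genes were positive. Rplp1 (0.10, adjusted p = 0.74) and Ndufb9 (0.37, adjusted p = 0.069) were no longer called.

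The result of the correction differed with the genes that set the trend. With the trend fitted on all genes, noncoding ones included, 2709 coding genes were positive and 1627 negative, 3435 of the calls were shared in the same direction and 11 were called in the opposite one, and bin medians by span lay between −0.0058 and 0.68. The ribosomal count was then 55 of 79 and the histone count, given below, 35 of 45, while the oxidative phosphorylation count was 37 and the proteasome count 20. Rplp1 was then called (0.62, adjusted p = 0.0052), and Ndufb9 stood at 0.0036 (adjusted p = 0.99). Counts of 30 interferon-stimulated, 19 XBP1 target and 10 ATF6 target genes were positive. Gins4, Flt1, Tubg1, Fbn1, Zfhx4 and Iigp1 were called with neither correction.

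**Figure D5:**
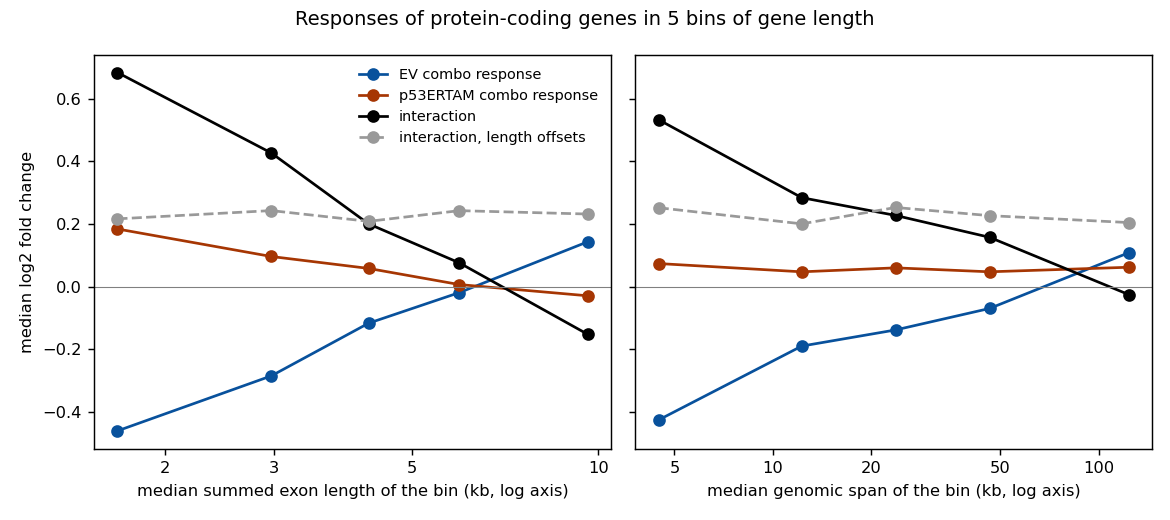
Points are medians over bins of protein-coding genes, with the bin's median length in kb on a log x axis (summed exon length on the left, genomic span on the right) and the log2 fold change on the y axis. The interaction falls from 0.68 to −0.15 across exon length bins and lies at 0.20 to 0.25 in every bin once length trends fitted on protein-coding genes are removed.

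Of 35 DNA replication genes 9 were positive and 1, the polymerase Pole (−0.72), negative (median 0.44), the positive share lying near the 23.1% of all coding genes. Fen1, a flap endonuclease, stood at 92.6, 113 and 124 CPM in EV vehicle and 38.8 to 60.7 in the other 9 libraries, EV combo and both p53ERTAM groups overlapping (interaction 1.0 ± 0.22, adjusted p = 0.0048). The replicative helicase factor Gins4 showed the same order (0.92 ± 0.23, adjusted p = 0.0076). The replication count was 5 with the coding-only scale. It was 5 when EV vehicle replicate 2 or 3, EV combo replicate 1 or 2, or any p53ERTAM combo library was left out, and 14 without p53ERTAM vehicle replicate 1. The negative count was 3 without EV vehicle replicate 3. Of 33 mitosis genes 2 were positive (1 without p53ERTAM combo replicate 1 or 3) and 4 negative. The negative share lay near the 11.7% of all coding genes and the positive share below their 23.1%. All 33 were lower in p53ERTAM than in EV tumors under vehicle, against 24.5% of all coding genes. Cenpa, the centromeric histone, stood at 133 to 157 CPM in the 6 EV libraries, 120, 113 and 107 in p53ERTAM vehicle and 73.7, 67.5 and 75.3 in p53ERTAM combo (interaction −0.72 ± 0.14, adjusted p = 0.0019), and the condensin subunit Ncapd2 rose in EV tumors (log2 0.42, adjusted p = 0.0087; interaction −0.82 ± 0.16, adjusted p = 0.0019).

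Replication-dependent histone genes, whose messengers mostly lack a poly(A) tail and are kept in total RNA libraries, were positive for 21 of 45 and negative for 0 (median 0.82), all 21 of the EV only, down shape. Hist1h4c stood at 107, 117 and 110 CPM in EV vehicle, 59.7, 49.1 and 74.7 in EV combo and 26.9 to 47.7 in p53ERTAM tumors (interaction 1.05 ± 0.27, adjusted p = 0.0105), and Hist1h4f had 1.19 ± 0.34 (adjusted p = 0.016; 0.0775 without the filter). These are among the shortest genes tested and near-identical copies, and the count was 5 with the coding-only scale and 2 with the length correction fitted on protein-coding genes. It was 4 with p53ERTAM combo replicate 1 or 3 or EV vehicle replicate 2 left out, 6 without EV combo replicate 2 and 9 without EV combo replicate 1 or EV vehicle replicate 3.

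Splicing regulators went the other way. Of 41 tested, 21 were negative and 3 positive (median −0.49; 23 negative and 0 positive with the coding-only scale, 19 and 5 with the length correction fitted on protein-coding genes), and in EV tumors 18 rose and 7 fell. Clk2, a kinase of SR splicing proteins (chr3:89164795-89176921), stood at 34.1, 29.6 and 32.1 CPM in EV vehicle, 86.6, 84.0 and 81.0 in EV combo and 28.4 to 31.4 in p53ERTAM tumors. EV combo stood alone above the 9 others, p53ERTAM tumors lay at the EV vehicle level, and the interaction was −1.34 ± 0.14 (adjusted p = 0.00016). Rbm5, a splicing factor that acts on death receptor transcripts, stood at 119, 105 and 100 CPM in EV vehicle, 244, 243 and 229 in EV combo, 142, 174 and 116 in p53ERTAM vehicle and 107, 110 and 105 in p53ERTAM combo (interaction −1.58 ± 0.18, adjusted p = 0.00021). The positive members were Ptbp1 (0.52), Mbnl2 (0.60) and Hnrnpc (0.65), and their number was 0 without p53ERTAM combo replicate 1 or 3 and 1 without EV vehicle replicate 2 or 3 or p53ERTAM combo replicate 2.

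Most collagen and matrix genes rose in EV tumors. Of 36 tested, 16 were negative (median −0.82) and 1, Col14a1 (1.15), positive, though not without EV combo replicate 1 or p53ERTAM combo replicate 1 or 3. The negative count was 9 with voom quality weights (median −0.54) and 8 without the filter (median −0.80). In the EV response 23 rose and 0 fell, against 14% upward of all coding genes. In the p53ERTAM response 4 rose and 0 fell, against 4.1%. Under vehicle 29 of the 36 were already higher with p53ERTAM than with EV, against 15.7% of all coding genes. Col16a1, which links fibrils, stood at 33.3, 42.3 and 40.7 CPM in EV vehicle, 303, 239 and 208 in EV combo, 49.9, 103 and 50.9 in p53ERTAM vehicle and 40.1, 37.3 and 38.5 in p53ERTAM combo (interaction −3.50 ± 0.35, adjusted p = 0.00016). Col5a3, a fibril-regulating collagen, instead stood in p53ERTAM tumors at 28.5 to 74.7 CPM, within or above the 25.9 to 41.4 of EV combo (EV vehicle 8.12 to 15.3; interaction −2.08 ± 0.44, adjusted p = 0.0041). Of 12 fibroblast markers 6 were negative and 0 positive (median −0.77), and their summed level was lowest in EV vehicle, at 584 to 644 CPM, against 1150 to 2104 (EV combo), 1555 to 3881 (p53ERTAM vehicle) and 1488 to 2215 (p53ERTAM combo). Col1a1 stood at 774, 2288 and 748 CPM in p53ERTAM vehicle and 960, 659 and 790 in p53ERTAM combo, and its interaction of −2.00 was −1.26 without the library at 2288 CPM, p53ERTAM vehicle replicate 2. Without the filter Col1a1 was not called (adjusted p = 0.0635). Pdgfrb, a receptor of fibroblasts and pericytes, had −1.14 ± 0.28 (adjusted p = 0.0079). The fibroblast count was 3 without EV combo replicate 3. Of 12 endothelial markers 1 was negative (Flt1, −0.80), against 11.7% of all coding genes. The endothelial count was 3 with replicate 2 of either EV group left out and 2 without p53ERTAM vehicle replicate 1. It was 0 with p53ERTAM combo replicate 1 or 2, p53ERTAM vehicle replicate 2 or 3, EV combo replicate 1 or EV vehicle replicate 3 left out. The part of stromal cell numbers in the collagen result was not tested.

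Clustered protocadherins, adhesion molecules expressed from alternative first exons that share 3′ exons, were negative for 14 of 34 and positive for 0 (median −1.61), 13 of the 14 from the gamma cluster. Pcdhga9 stood at 1.78, 0.965 and 1.15 CPM in EV vehicle, 14.1, 10.04 and 12.3 in EV combo and 2.04 to 5.14 in p53ERTAM tumors (interaction −3.80 ± 0.44, adjusted p = 0.00023). Pcdhga8 stood at 0.0439 to 0.148, 2.31 to 3.13 and 0.863 to 1.91 CPM in the same order (−5.57 ± 0.62, adjusted p = 0.00019). In both, the 3 EV combo libraries were the highest of 12 and the 3 EV vehicle libraries the lowest. Because these genes overlap over shared exons, the split of counts among them is uncertain and they are not independent of one another.

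Basal mammary markers were negative for 7 of 14 and positive for 2 (median −0.90), the positive count being 1 when any library but EV vehicle replicate 1 or p53ERTAM vehicle replicate 3 was left out. Krt14, a basal keratin, stood at 70.3, 135 and 79.5 CPM in EV vehicle, 127, 109 and 89.7 in EV combo, 24.9, 23.3 and 41.1 in p53ERTAM vehicle and 6.45, 8.05 and 5.88 in p53ERTAM combo. It fell in p53ERTAM tumors (log2 −2.13, adjusted p = 0.0042) to below every other library, with an EV response of 0.19 and an interaction of −2.33 ± 0.38 (adjusted p = 0.0011). Krt5 (−3.22), Krt15 (−2.24) and the basal transcription factor Trp63 (−1.16), chosen after their values were seen, were negative as well. Dst, which ties keratins to hemidesmosomes, had another shape: it rose in EV tumors from 28.4 to 43.0 CPM to 118 to 189 CPM and stood at 106 to 195 CPM in p53ERTAM tumors (interaction −1.96 ± 0.33, adjusted p = 0.0011). General epithelial markers were positive for 6 of 14 and negative for 1, Grhl2 (−0.48), with a median of 0.65. Cdh1, the epithelial cadherin, stood at 510, 497 and 646 CPM in EV vehicle and 253 to 360 CPM in the other 9 libraries (interaction 1.13 ± 0.19, adjusted p = 0.00098), and the junction protein Cldn4 had 0.96 ± 0.20 (adjusted p = 0.0028). All 4 erythroid markers tested were negative (median −4.46), at summed levels of 0.314 to 15.9 CPM, and 2 of them were called without EV combo replicate 3.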

How the data were processed

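Stranded libraries of ribosome-depleted total RNA from bulk tumors were sequenced, per the labels' protocols. Each deposited file gives unnormalized read counts by gene, in the column layout of featureCounts, per the file headers. Per the submitters' processing notes, the tools were FastQC, fastp, STAR and featureCounts, and the build was GRCm38.p5. Annotation release and strand setting are not given in the sources used here. GENCODE M21 gave biotypes for 52489 of 52636 identifiers.

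Groups came from the sample titles. edgeR 4.0.16 (filterByExpr, TMM, robust quasi-likelihood) in R 4.3.3 was fitted once over 4 group means, with 8 residual degrees of freedom, and p-values were adjusted over 17970 genes. Counts were simulated for the same 17970 genes without group effects, except in 200 coding genes changed in EV combo. Interactions of 1, 1.5, 2 and 3 (log2) were recovered at 52, 78, 90 and 98%. Of the calls in the simulation 5.92% were false. It held no outlier library and no shift in library composition. The false share of the 4836 calls in the real data was not measured. CPM are edgeR's, scaled by TMM. Replicates are not stated to be separate animals, so p-values measure the spread between these samples. No 2 replicates agreed within sampling noise (chi-square 9.2 to 67.3 per gene).

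Named genes were the 4 largest interactions per shape (mean of at least 5 CPM in the highest group, leaving out unnamed, immunoglobulin, T cell receptor, mitochondrial and olfactory genes), from each list described the 2 called members with the lowest p, and Trp53, Esr1, Cdkn1a, Mdm2, Xbp1 and Ern1. Members and lists were chosen with earlier results of these data known. Alternatives were DESeq2 1.42.0 and its size factors, limma 3.58.1 voom with quality weights, other filters, a coding-only fit, a tested fold of 1.5, length offsets, a replicate block and leaving out each library. Length offsets were fitted on all genes above 1 CPM and, a choice made after seeing the data, on protein-coding genes alone; the latter is shown where only 1 is given.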

Additional observations from a re-analysis of the deposited data

Results flagged for a closer look

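The combo response differed between the vectors, by the interaction test itself, for 84 of the 89 named genes. All but Trp53, Esr1, Cdkn1a, Mdm2, Xbp1 and Ern1 were chosen among called genes, so this count follows from the choice. Over all coding genes tested the share called was 34.8%. Most of the named genes have been described above. Each value here is the log2 response in p53ERTAM minus that in EV tumors. Among genes with a response of at least 1.5-fold in EV tumors alone, upward, it was −4.75 for Clic6, −1.34 for Clk2, −4.99 for Col11a2, −5.95 for Col25a1, −2.08 for Col5a3, −1.96 for Dst, −0.80 for Flt1, −3.80 for Pcdhga9, −1.14 for Pdgfrb, −1.58 for Rbm5 and −5.21 for Srcin1. Among genes with such a response in EV tumors alone, downward, it was 1.0 for Arf1, 1.13 for Cdh1, 4.99 for Cldn10, 0.96 for Cldn4, 3.49 for Dbp, 1.14 for Dnaja2, 1.02 for Dnajb11, 0.96 for Erp44, 1.0 for Fen1, 0.92 for Gins4, 5.64 for Gnao1, 1.05 for Hist1h4c, 1.19 for Hist1h4f, 5.24 for Khdrbs3, 1.18 for Ndufb9, 1.43 for Psat1, 0.95 for Rplp1, 1.28 for Rps16, 1.30 for Selenos, 1.62 for Serp1, 1.38 for Uqcrq and 1.38 for Xbp1. Among genes with such a response in p53ERTAM tumors alone, upward, it was 1.95 for C1qa, 2.62 for Ccl5, 2.13 for Ctss, 0.96 for Ddx58, 1.54 for Ephx1, 2.54 for Ifit1, 3.32 for Ifit3b, 2.86 for Iigp1, 2.74 for Pigr, 1.22 for Tapbp, 0.78 for Tuba4a and 2.0 for Tyrobp. Among genes with such a response in p53ERTAM tumors alone, downward, it was −4.41 for Alas2, −0.72 for Cenpa, −3.04 for Col17a1, −2.90 for Fgfr2, −2.33 for Krt14 and −2.69 for Ltb4r2. Among genes with opposite responses, EV upward, it was −3.50 for Col16a1, −2.00 for Col1a1, −5.20 for Col7a1, −8.21 for Gjc3, −4.61 for Nlrp9b, −5.57 for Pcdhga8 and −5.24 for Pcdhgc4. Among genes with opposite responses, EV downward, it was 1.87 for Bst2, 1.80 for Ccng1, 4.66 for Cd22, 4.65 for Cd8b1, 1.5 for Erap1, 4.23 for Gpr171, 3.36 for H2-DMb1, 4.34 for Icos, 9.19 for Jchain, 1.68 for Psmb10, 1.53 for Psmd8, 4.16 for Tgtp1 and 1.62 for Tlr3. The value of Gjc3 is a fitted one over a group with no count, depends on the prior count and is no bound. Among genes higher under combo in both vectors, it was −1.86 for Adamts3, −0.69 for Fbn1, −0.80 for Mmp2 and −2.16 for Zfhx4. Among genes lower under combo in both vectors, it was 2.49 for Cldn2 and −3.96 for Hbb-bs. Among genes where neither response reached 1.5-fold, it was 0.96 for Ahsa1, 0.94 for Calr, 0.79 for Gosr2, 0.70 for Nars, −0.82 for Ncapd2, 1.04 for Psmb3 and 0.66 for Tubg1.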

How the results depend on the processing

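Of 1952 refits of the 89 named genes under single changes of the processing, 1810 kept direction and side of the threshold, 141 kept direction but were no longer called, 1 gained a call and 0 reversed; 54 of the 84 called genes were called in every setting but the fold test. Over all calls, 2056 of 4836 were called with the same sign in all 21 settings other than that test. Positive calls (3207) numbered 1962 with protein-coding genes alone and 749 against a fold of 1.5, and negative calls (1629) numbered 634 against that fold; leaving out single libraries gave 2228 to 3381 and 1311 to 1668. With a 2-fold response in place of 1.5-fold, EV only held 496 genes upward and 320 downward, p53ERTAM only 258 and 37, opposite 69 (EV up) and 68 (EV down), and neither 3588. With responses read from adjusted p, EV only held 1196 upward and 2246 downward, opposite 112 (EV up) and 117 (EV down), and neither 719. Protein-coding genes alone gave 1036 genes upward and 768 downward for EV only, and 309 (EV up) and 135 (EV down) for opposite responses. Length offsets fitted on protein-coding genes, a choice made after seeing the data, gave 166 opposite, EV down genes. Leaving out single libraries gave 632 to 863 (EV only, up), 1094 to 1495 (EV only, down), 271 to 565 (p53ERTAM only, up), 66 to 175 (p53ERTAM only, down), 124 to 340 (opposite, EV up), 147 to 376 (opposite, EV down) and 978 to 1611 (neither). The causes were not tested. The replicate numbers pair no samples by the labels, and 2 of 18 same-number correlations of deviations were above 0.1 (−0.149 to 0.211); with a replicate block 2980 genes were positive (21.4%) and 1498 negative (10.8%), the MHC class II count was 4 of 11, endothelial and epithelial markers had 0 negative, and Adamts3, Flt1, Iigp1 and Zfhx4 were not called. Genes of a few counts per library, such as Gjc3, are limited by depth.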
